A study of Mus musculus with 8 samples.

Results

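Taurine and amino acid transporters of the oral epithelium were examined in mice with and without resident microbes. The set holds 9 genes of the solute carrier (SLC) families, chosen by name among the 22911 genes of the deposited table, and all 9 were found in it. Slc6a6, the taurine transporter gene, entered the set because of its strong difference between the groups, so its values are given as a description with no test. The other 8 genes were chosen as transporters of neutral and cationic amino acids with earlier results of these data known. RNA was sequenced from sorted buccal epithelial cells of adult C57BL/6 mice, untreated in both groups. The specific pathogen-free (SPF) group, which carries a resident microbiota free of listed pathogens, held 4 libraries, and the germ-free group, from mice that carry no microorganisms, also held 4. The epithelium was peeled from the mucosa with dispase II and sorted by flow cytometry, and the sources used here do not name the sort markers. The libraries of a group are labelled as separate samples, and nothing in the labels says whether each came from its own animal, so the spread between them, given as a standard deviation (SD, n = 4), may be partly technical.

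SLC transporters carry amino acids across the plasma membrane and the membranes of organelles, often by coupling the movement to sodium. Taurine is a sulfur-containing amino acid that is not built into proteins, and cells accumulate it as an organic osmolyte through the transporter encoded by Slc6a6. Glutamine and other neutral amino acids enter by sodium-coupled carriers, and leucine and other large neutral amino acids enter by exchange through a heterodimer of a light and a heavy chain. Amino acids inside lysosomes are sensed on the way to the growth-controlling kinase complex mTORC1.

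Gene counts summed to between 10260264 and 15524731 per library. Levels are given as CPM, the counts of a gene scaled to a library of common size, with the size corrected for composition by the trimmed mean of M values (TMM). The 16 oral epithelial marker genes, such as the basal keratin gene Krt5, were all present and summed to between 58417 and 69131 CPM in SPF libraries and between 54830 and 64147 CPM in germ-free libraries. The log2 fold change was above 0 for 4 of these 16, and edgeR called Sfn (-0.64, adjusted p = 0.00667) and Cdh3 (-0.82, adjusted p = 0.0235) lower and 0 higher. Fibroblast markers, 18 of 18 in the table, summed to between 207 and 244 CPM in SPF libraries and between 249.7 and 1089 CPM in germ-free libraries, with germ-free 3 the highest and the other germ-free libraries at or below 302 CPM. Lum, Pdgfra and Postn had 0 counts in at least 1 library. Of the 16 fibroblast markers tested 14 had a log2 fold change above 0, and the 1 that edgeR called, Thy1, was lower (-0.70, adjusted p = 0.0383). Endothelial markers, 12 of 12 in the table, summed to between 5.83 and 15.8 CPM in SPF and between 18.4 and 165 CPM in germ-free libraries, and Cdh5, Cldn5, Emcn, Plvap and Tek had 0 counts in at least 1 library. Of the 10 endothelial markers tested 10 had a log2 fold change above 0 (median 2.98). Called higher by edgeR were Emcn (means 0.0182 against 1.94 CPM, adjusted p = 0.00469) and Tie1 (0.270 against 4.58 CPM, adjusted p = 0.0133), and 0 were called lower. These calls were 20% of the markers tested, against 4.18% of all genes tested. Leukocyte markers summed to between 6.21 and 40.7 CPM in SPF and between 7.80 and 41.8 CPM in germ-free libraries. Lyz2, Cd3e and Tyrobp were among those with 0 counts in at least 1 library. Skeletal muscle markers summed to between 10.9 and 14.9 against 8.45 and 31.3 CPM, and melanocyte and nerve markers to between 55.1 and 62.7 against 68.9 and 89.1 CPM. Of the 4 melanocyte and nerve markers tested 2 had a log2 fold change above 0, and edgeR called Mbp higher (0.44, adjusted p = 0.0459). The sums of the fibroblast, endothelial and melanocyte and nerve lists did not overlap between the groups, and their part in the results below was not tested except where a value is given.

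The taurine transporter gene was 2.1-fold higher in germ-free than in SPF epithelium, and edgeR called no other transporter of the set at an adjusted p under 0.05, while DESeq2, limma voom and the authors' deposited table called Slc38a2. Slc38a2, Slc7a1 and Slc7a5, which encode importers of glutamine, cationic and large neutral amino acids, had fold changes of 1.25, 1.24 and 1.20. Slc1a4, Slc1a5, Slc3a2 and Slc38a9 differed by at most 1.10-fold between the group means. Slc38a1 had at most 25 counts in any library.

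**Figure D1:**
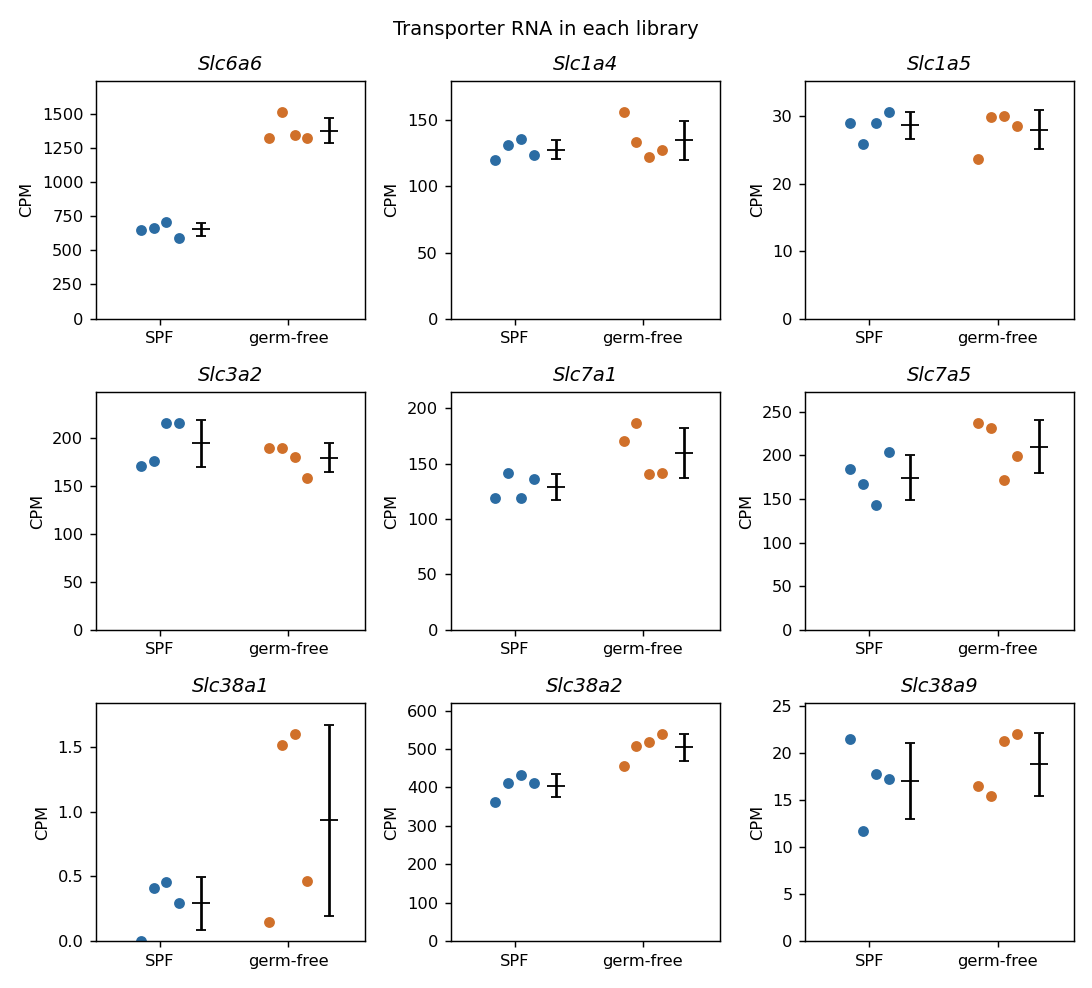
RNA level of each of the 9 transporter genes in CPM (vertical axis, starting at 0 and scaled per gene) in the 4 SPF (blue) and 4 germ-free (orange) libraries; the bar beside the points is the mean with its SD. The germ-free points of Slc6a6, between 1319 and 1513 CPM, all lie above the SPF points, between 592 and 709 CPM, and the same separation is seen at a smaller size for Slc38a2.

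Slc6a6 (ENSMUSG00000030096, GRCm38 chromosome 6, 91684053 to 91759066, plus strand) encodes the sodium- and chloride-dependent taurine transporter TauT. Its level was 652, 666, 709 and 592 CPM in SPF libraries 1, 3, 4 and 5. It was 1319, 1513, 1344 and 1325 CPM in germ-free libraries 1 to 4. Every germ-free library lay far above the highest SPF library. The SPF mean was 655 ± 48.3 CPM and the germ-free mean 1375 ± 92.3 CPM (± SD, n = 4 each), and the log2 fold change was 1.07 ± 0.09 (standard error, SE). These are the values that chose the gene. In the authors' deposited table its log2 fold change was -1.07 for SPF over germ-free.

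The gene was abundant as well as different between the groups. The mean level was 720.5 CPM higher in germ-free libraries, and 7 of the 15098 genes that passed the filter on low counts gained more CPM. The SPF mean of Slc6a6 was exceeded by 2 of the 279 genes called higher in germ-free mice. By fold change alone Slc6a6 stood at place 601 of 15098, behind many genes of low level. These places reuse the values that chose the gene, so they describe it and test nothing. Counts of Slc6a6 ran from 6408 to 22923 per library, and the SD was 7.38% of the mean in SPF and 6.71% in germ-free mice.

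Among germ-free libraries, germ-free 2 had the highest Slc6a6 level and the other 3 lay close together, between 1319 and 1344 CPM. Without germ-free 2 the log2 fold change was 1.02, and with any 1 library left out it lay between 1.02 and 1.11. Germ-free 3, which carried the most fibroblast and endothelial marker RNA, was at 1344 CPM, between the other germ-free libraries, and without it the log2 fold change was 1.08. With the summed log2 level of fibroblast markers as a covariate it was 1.07 ± 0.12. Since RNA was measured in bulk, more Slc6a6 RNA per cell cannot be told apart from more cells of a type that holds it.

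Reads assigned inside an intron of Slc6a6 differed by a like amount. Gm45828, an unclassified gene model on the same strand (chromosome 6, 91709406 to 91711241), lies within Slc6a6 and shares 0 exon bases with it. It was at 12.5, 11.6, 7.56 and 8.45 CPM in the SPF libraries and at 18.5, 25.0, 15.7 and 23.7 CPM in the germ-free libraries. The groups did not overlap, and the log2 fold change was 1.05 ± 0.21, from reads that the exon count of Slc6a6 does not include. The gene model was singled out after its values were seen, and it comes from the same contrast that chose Slc6a6, so no test is given. Gm44981, on the opposite strand, shares 117 exon bases with Slc6a6, 1.38% of its exon length, and its means were 0.252 CPM (SPF) against 0.339 CPM (germ-free).

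Genes whose profile over the 8 libraries was among the closest to that of Slc6a6 included Sox12, Ntf3 and Ttc28. Likeness was measured as the root mean square difference of log2(CPM + 1) after the SPF mean of each gene was subtracted, over the 11314 genes whose mean reached 2 CPM. It was 0.180 for the transcription factor gene Sox12, whose SPF level of 8.97 ± 1.07 CPM compares with 17.3 ± 1.72 CPM in germ-free mice. It was 0.189 for the neurotrophin gene Ntf3 and 0.190 for Ttc28. Of the other transporters in the set the nearest was Slc38a2, at 0.545 and place 804, followed by Slc7a1 at 0.565 and place 996. Because only the SPF mean was subtracted, the measure includes the difference between the groups that chose Slc6a6. The likeness values and places therefore describe the genes and test nothing.

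Glutamine and small neutral amino acids enter through SLC38 carriers coupled to sodium. Slc38a2 (ENSMUSG00000022462, chromosome 15, 96687392 to 96699730, minus strand) encodes SNAT2, a transporter whose RNA is known to rise when cells lack amino acids. It was at 363, 412, 433 and 412 CPM in the SPF libraries. It was at 455, 507, 518 and 538 CPM in the germ-free libraries, each above every SPF library. The means were 405 ± 29.8 and 505 ± 35.7 CPM, a log2 fold change of 0.32 ± 0.09. The adjusted p of the quasi-likelihood test in edgeR, with the Benjamini-Hochberg method over all genes tested, was 0.0583, which missed the threshold of 0.05. In the authors' deposited table Slc38a2 passed, with an adjusted p of 0.0136, and DESeq2 on the same counts gave 0.00871 and limma voom 0.0209. With any 1 library left out, edgeR's adjusted p lay between 0.0518 and 0.158, and the log2 fold change between 0.26 and 0.35. It was 0.25 ± 0.11 with the fibroblast covariate (edgeR adjusted p = 0.338).

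Slc38a1 (ENSMUSG00000023169, chromosome 15, 96571418 to 96642913, minus strand), which encodes the related carrier SNAT1, had few counts. It had 0, 6, 6 and 4 counts in the SPF libraries and 2, 23, 25 and 5 counts in the germ-free libraries. A floor of 3 counts corresponds to 0.192 to 0.305 CPM, so SPF 1 and germ-free 1 were below it. The groups overlapped, and the gene did not pass the filter on low counts. Germ-free 2 and germ-free 3, which held the most Slc38a1, also held the most endothelial marker RNA, at 54.8 and 165 CPM. The part of such RNA in the Slc38a1 counts was not tested.

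The lysosomal member Slc38a9 (ENSMUSG00000047789, chromosome 13, 112660751 to 112738749, plus strand) encodes an arginine-sensing protein that binds the Ragulator complex upstream of mTORC1. It was at 21.5, 11.7, 17.8 and 17.3 CPM in the SPF libraries and at 16.5, 15.4, 21.3 and 22.0 CPM in the germ-free libraries. The groups overlapped over most of their range. The log2 fold change was 0.14, with a 95% confidence interval of -0.28 to 0.57 and an edgeR adjusted p of 0.743. Its direction turned without SPF 3, where it was -0.0044.

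Cationic amino acids such as arginine and lysine enter through CAT1, the product of Slc7a1 (ENSMUSG00000041313, chromosome 5, 148327410 to 148399904, minus strand). Its level was 119, 142, 119 and 136 CPM in the SPF libraries and 170, 186, 141 and 141 CPM in the germ-free libraries. Germ-free 3 and germ-free 4 lay just below SPF 3, and the other germ-free libraries lay above all SPF libraries. The log2 fold change was 0.31 (95% confidence interval 0.086 to 0.53), and the edgeR adjusted p was 0.116.

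Large neutral amino acids are exchanged by a heterodimer of LAT1, the light chain encoded by Slc7a5, and CD98, the heavy chain encoded by Slc3a2. Slc7a5 (ENSMUSG00000040010, chromosome 8, 121881150 to 121907694, minus strand) was at 184, 167, 143 and 203 CPM in the SPF libraries. It was at 237, 232, 172 and 199 CPM in the germ-free libraries, and the groups overlapped. The log2 fold change was 0.27 (95% confidence interval 0.0045 to 0.53; edgeR adjusted p = 0.249). Slc3a2 (ENSMUSG00000010095, chromosome 19, 8706882 to 8723369, minus strand) was at 171, 176, 215 and 216 CPM in the SPF libraries and at 190, 190, 180 and 158 CPM in the germ-free libraries. Its log2 fold change was -0.11 (95% confidence interval -0.33 to 0.10; edgeR adjusted p = 0.576), and it ran from -0.18 without SPF 1 to -0.060 without germ-free 4. With the fibroblast covariate the log2 fold change of Slc7a5 was 0.47 ± 0.13, with an adjusted p of 0.113, over 1.5 times the value without it.

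The balance of the light and the heavy chain was compared within each library, as log2(CPM + 1) of Slc7a5 minus that of Slc3a2. It was 0.11, -0.076, -0.59 and -0.083 in SPF libraries 1, 3, 4 and 5, and 0.32, 0.28, -0.064 and 0.33 in germ-free libraries 1 to 4. In 3 of 4 germ-free libraries the difference was above that in every SPF library, and in germ-free 3 it was close to that of SPF 3 and SPF 5. The group means differed by 0.38, and an exact two-sided permutation test over the 70 arrangements of the libraries gave p = 0.0571, or 0.171 adjusted over the 3 pairs compared. The smallest p that 4 against 4 libraries allow is 0.0286. Without SPF 4 the difference was 0.23.

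The paralogs Slc1a4 and Slc1a5 encode ASCT1 and ASCT2, sodium-dependent exchangers of alanine, serine, cysteine and, for ASCT2, glutamine. Slc1a4 (ENSMUSG00000020142, chromosome 11, 20302180 to 20332713, minus strand) was at 120, 131, 136 and 124 CPM in the SPF libraries and at 156, 133, 122 and 128 CPM in the germ-free libraries. Its log2 fold change was 0.08 (95% confidence interval -0.11 to 0.27; edgeR adjusted p = 0.683), and it was -0.014 without germ-free 1, the library with the highest level. Slc1a5 (ENSMUSG00000001918, chromosome 7, 16781340 to 16798274, plus strand) was at 29.0, 25.9, 29.1 and 30.7 CPM in the SPF libraries and at 23.8, 29.9, 30.1 and 28.5 CPM in the germ-free libraries. Its log2 fold change was -0.03 (95% confidence interval -0.29 to 0.23; edgeR adjusted p = 0.922), with a direction that turned without SPF 5 (0.0011), without germ-free 1 (0.026) and by limma voom (0.016).

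The other pairs were compared in the same way. Slc1a5 minus Slc1a4 was -2.12 ± 0.15 in SPF and -2.22 ± 0.30 in germ-free libraries, a difference of -0.11 (exact two-sided permutation p = 0.686, adjusted p = 0.686). Germ-free 1 alone was far from the rest, at -2.67. Slc38a2 minus Slc38a1 was 8.31 ± 0.14 in SPF and 8.11 ± 0.54 in germ-free libraries (exact two-sided permutation p = 0.486, adjusted p = 0.686), and its size rests on the pseudocount because Slc38a1 is near 0.

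**Figure D2:**
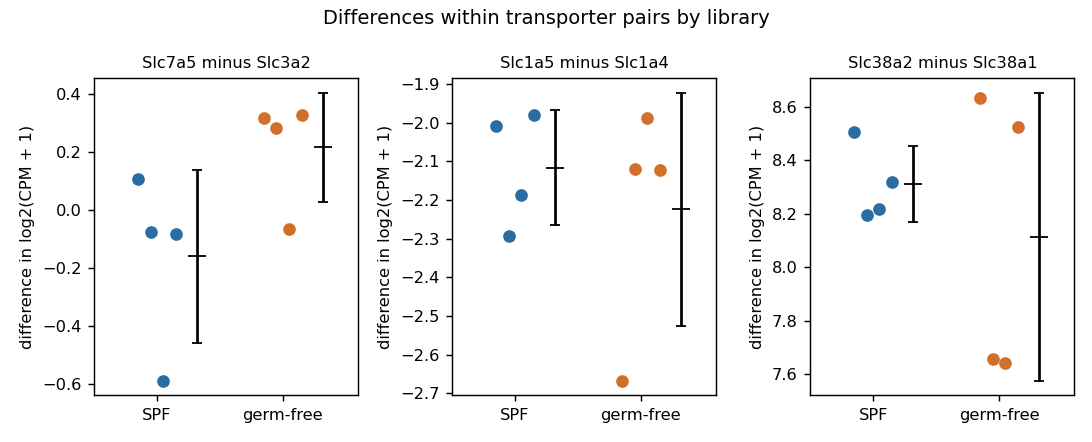
Difference in log2(CPM + 1) between the members of each transporter pair in the 4 SPF (blue) and 4 germ-free (orange) libraries, with the mean and SD of each group at the side; the vertical axes do not start at 0. Germ-free libraries 1, 2 and 4 lie above all SPF libraries for Slc7a5 minus Slc3a2, while the groups overlap for the other pairs.

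Taken over the 7 members other than Slc6a6 that passed the filter, edgeR called 0 at an adjusted p under 0.05, against 4.18% of the 15098 genes tested. DESeq2 called 1 of the 7 and limma voom 1, in both cases Slc38a2, against 8.50% and 6.78% of all genes by these tools. In the authors' deposited table the adjusted p was under 0.05 for 5.21% of all genes. At an unadjusted p under 0.05 edgeR found Slc38a2, Slc7a1 and Slc7a5, or 3 of 7, where 19.5% of all genes had such a p. Apart from Slc6a6, 1 of the 7 had groups without overlap, Slc38a2, which was higher in germ-free mice. Groups did not overlap for 13.1% of all genes tested, and 6.24% were higher in this way, so 1 of 7 is close to the background.

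**Figure D3:**
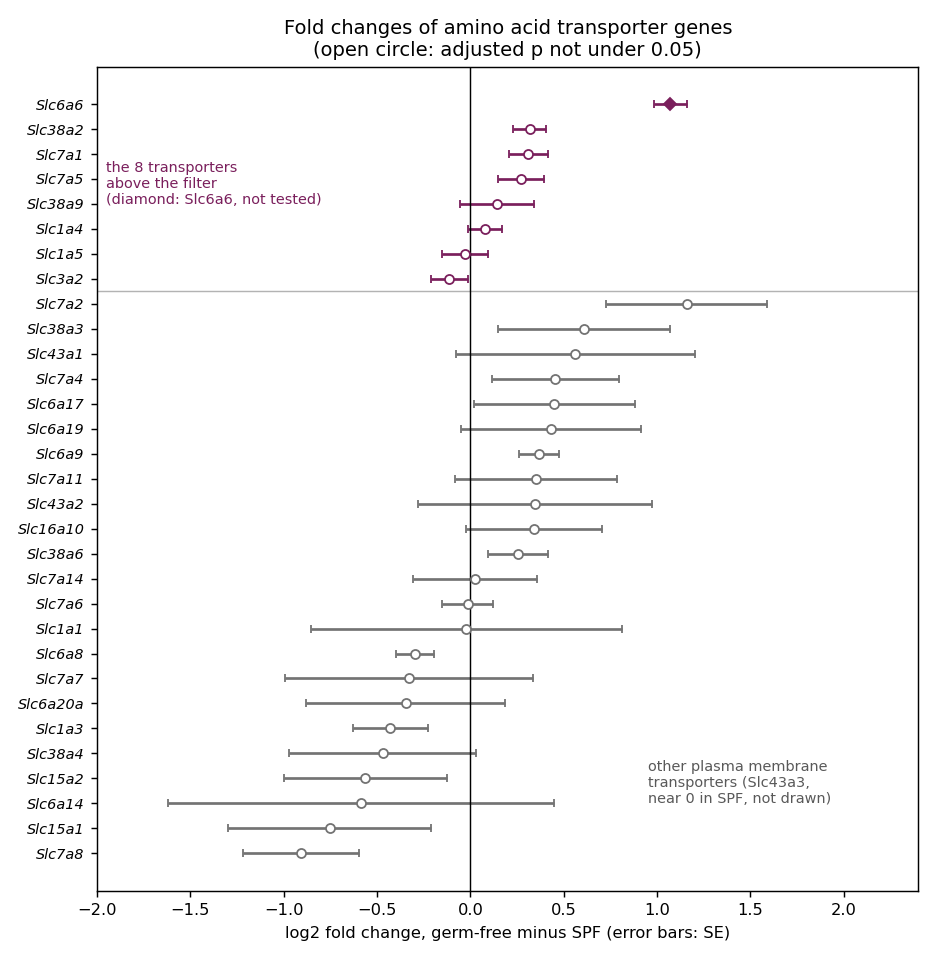
Log2 fold change of germ-free over SPF (horizontal axis) with its SE for the 8 members above the filter (purple) and 23 other plasma membrane transporter genes (grey). Slc6a6, at 1.07, was chosen for its difference and has no test; edgeR called no other gene drawn at an adjusted p under 0.05, and Slc43a3, which it did call, is not drawn because its SPF level is near 0.

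Levels of different genes were set side by side as CPM per kilobase of annotated exon. On this scale Slc6a6 had the most RNA, at 77.4 ± 5.71 in SPF and 163 ± 10.9 CPM per kilobase in germ-free mice, and it took place 286 of 15082 genes. Slc3a2, Slc7a5 and Slc38a2 followed, at 55.1 ± 6.92, 47.0 ± 6.92 and 45.8 ± 3.37 CPM per kilobase in SPF and 50.9 ± 4.22, 56.6 ± 8.14 and 57.1 ± 4.04 in germ-free mice. The ranges of Slc3a2 and Slc7a5 overlapped in both groups, as did those of Slc7a5 and Slc38a2, so their order is not resolved. Slc1a4 was at 32.5 and 34.3, Slc7a1 at 11.2 and 13.9 and Slc1a5 at 6.87 and 6.72 CPM per kilobase in SPF and germ-free mice. Slc38a9 was at 1.02 and 1.13, and Slc38a1 was at or below 0.0928 CPM per kilobase in every library. From Slc38a2 downwards no neighbours in the order overlapped in either group. Exon lengths join all annotated isoforms, which lowers the values of genes with many isoforms.

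**Figure D4:**
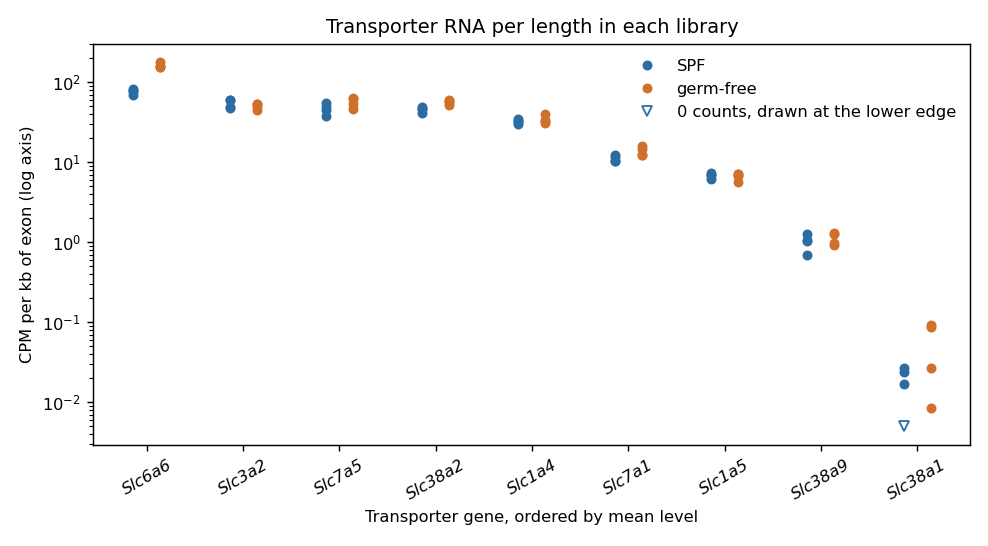
CPM per kilobase of exon (log axis) for the 9 transporter genes, ordered by mean level, in SPF (blue) and germ-free (orange) libraries, 1 point per library; the open triangle marks the library with 0 counts, drawn at the lower edge. Slc6a6 lies above all others in both groups, Slc3a2, Slc7a5 and Slc38a2 share a range between 38.6 and 63.9, and Slc38a1 lies far below.

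Promoter windows of 300 bases, from 250 before to 50 after the annotated start, were taken from RefSeq on GRCm38.p6 for Slc1a4, Slc38a2, Slc38a9, Slc3a2 and Slc7a1, the last with 2 starts. They were searched on both strands for TGATGNAA, the core of the C/EBP-ATF response element through which ATF4 acts, for the E-box CACGTG and for TGGAAA, the core of the tonicity element bound by NFAT5. Among all 32851 windows of this length 3.97%, 7.15% and 21.4% held them. The promoter of Slc1a4, a known ATF4 target whose level did not pass the test here, is shown because it alone among the 6 windows held one of the motifs. The C/EBP-ATF core stands in capitals, as its reverse complement, and begins at position -4 from the start. The promoter of Slc38a2 is shown because, among members that passed the filter, this gene had the largest fold change after Slc6a6. Its known amino acid response element lies in the first intron in human cells, outside such a window. The windows are chr11:20332664-20332963 and chr15:96699679-96699978, both on the minus strand and written 5′ to 3′. A match describes these letters and not a bound site.
Slc1a4: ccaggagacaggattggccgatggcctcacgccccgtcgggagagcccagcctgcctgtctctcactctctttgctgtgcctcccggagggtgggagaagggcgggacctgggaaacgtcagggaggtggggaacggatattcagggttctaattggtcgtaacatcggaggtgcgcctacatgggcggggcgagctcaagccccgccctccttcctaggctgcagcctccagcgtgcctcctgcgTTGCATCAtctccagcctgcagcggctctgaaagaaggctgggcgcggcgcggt
Slc38a2: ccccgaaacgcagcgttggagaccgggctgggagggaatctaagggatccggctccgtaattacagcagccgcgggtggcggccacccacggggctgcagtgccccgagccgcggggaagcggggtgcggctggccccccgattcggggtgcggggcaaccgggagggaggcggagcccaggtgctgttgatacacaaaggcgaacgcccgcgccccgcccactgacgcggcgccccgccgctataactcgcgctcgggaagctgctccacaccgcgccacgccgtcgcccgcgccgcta

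Genes that work beside these transporters were counted from lists. Over all genes tested 1.85% were called higher and 2.33% lower in germ-free mice. The list of other plasma membrane amino acid transporters covers SLC families broadly, and not every member is known to carry amino acids. Slc7a14 is also counted in the lysosomal list below, and Slc36a1, Sesn2, Slc7a11, Slc1a3, Aldh18a1 and Got1 are each in more than 1 list. Of the 24 genes of the plasma membrane list tested, edgeR called 1 higher and 0 lower, with 5 at an unadjusted p under 0.05. The median log2 fold change was 0.14, against 0.02 over all genes. The call was Slc43a3, which is known to carry purine nucleobases rather than amino acids. It was at 0, 0.205, 0.0764 and 0 CPM in the SPF libraries and at 1.10, 2.2, 10.6 and 1.21 CPM in the germ-free libraries (edgeR adjusted p = 0.0168). Every SPF value was at or below the floor of 3 counts, so no fold is given. Germ-free 3 and germ-free 2 were highest, as they were for the endothelial markers, whose part in the result was not tested. The call ended without SPF 4, without SPF 5, with the fibroblast covariate and by limma voom. DESeq2 called Slc43a3 and Slc6a9 higher and Slc7a8 lower, and limma voom called 0 higher and Slc6a8 lower.

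The list of lysosomal amino acid and peptide transporters is also broad, and not every member is known to carry these substrates or to be lysosomal. It held 0 calls among 13 genes by edgeR, DESeq2 or limma voom, with 1, 1 and 2 at an unadjusted p under 0.05. The smallest p belonged to Pqlc2, which encodes a lysosomal exporter of cationic amino acids and stood at 6.04 ± 0.994 CPM in SPF against 3.71 ± 1.11 CPM in germ-free mice. Among 38 genes of amino acid sensing by mTORC1, edgeR found 6 at an unadjusted p under 0.05 and called 1 lower and 0 higher (median 0.05). It was Castor1, which encodes a cytosolic arginine sensor. It was at 25.9, 25.9, 23.0 and 26.2 CPM in the SPF libraries and at 15.1, 16.6, 16.5 and 20.3 CPM in the germ-free libraries, with no overlap. The log2 fold change was -0.56 ± 0.14 (edgeR adjusted p = 0.0376), a call kept when germ-free 4 was left out and lost without any other single library. DESeq2 and limma voom each called Castor1 and Lamtor2 lower and Tfeb higher. Tfeb, a transcription factor gene of lysosome formation, was at 16.1 ± 2.60 CPM in SPF libraries against 25.1 ± 5.09 CPM in germ-free libraries, with an edgeR adjusted p of 0.0556.

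Of 35 genes of the ATF4 response to amino acid shortage, edgeR called 1 higher and 2 lower (median 0.02), DESeq2 1 and 4, and limma voom 2 and 1. At an unadjusted p under 0.05 edgeR found 13 of the 35, in both directions, where 19.5% of all genes had such a p. Groups did not overlap for 8 of the 35, against 13.1% of all genes tested. DESeq2 called Nars and Tars lower beside the edgeR calls, and limma voom called Cebpg higher beside Ddit4. The 2 genes that edgeR called lower encode enzymes of serine and one-carbon metabolism. The mitochondrial serine hydroxymethyltransferase gene Shmt2 went from 158 ± 19.4 to 116 ± 2.92 CPM (-0.45 ± 0.09, edgeR adjusted p = 0.0138), a call kept without any single library. Phgdh, the first enzyme of serine synthesis, changed by -0.44 ± 0.10 (edgeR adjusted p = 0.0299). The gene that edgeR called higher was Ddit4, an inhibitor of mTORC1 signalling that is induced by stress. It rose from 26.6 ± 2.48 to 37.7 ± 5.63 CPM (0.51 ± 0.13, edgeR adjusted p = 0.0442). The Phgdh call held when SPF 3 or germ-free 1 was left out and ended without any other library and by limma voom, and the Ddit4 call was lost without SPF 3, SPF 4, SPF 5, germ-free 3 or germ-free 4.

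The list of taurine synthesis and use, which holds enzymes and the transporter gene Slc36a1, had 0 calls among 10 genes by edgeR, with 3 at an unadjusted p under 0.05, and 1 call by DESeq2 and 1 by limma voom. That call was Ggt1, which encodes a gamma-glutamyltransferase, at 0.611, 0.821, 0.458 and 2.91 CPM in the SPF libraries and 3.38, 4.29, 3.71 and 3.90 CPM in the germ-free libraries (edgeR adjusted p = 0.104). Csad, the decarboxylase of taurine synthesis, was at 46.9 and 45.6 CPM, and Cdo1, the cysteine dioxygenase before it, at 2.97 and 8.85 CPM in SPF and germ-free mice, with edgeR adjusted p of 0.882 and 0.335. These 2 genes were named for their place in the pathway. Cdo1 was at 0, 4.17, 5.88 and 1.82 CPM in the SPF libraries. In the germ-free libraries Cdo1 was at 6.62, 10.8, 10.8 and 7.15 CPM, with no overlap. Its log2 fold change was 1.55 ± 0.81. Among 21 genes of the osmotic response and of cell volume, edgeR called 1 higher and 1 lower (median -0.01), DESeq2 2 and 1, and limma voom 0 and 1. At an unadjusted p under 0.05 edgeR found 6 of the 21. Sgk1, a kinase that regulates ion transport, fell from 249.7 ± 24.1 to 176 ± 9.64 CPM (-0.51 ± 0.09, edgeR adjusted p = 0.00663), with no overlap and with the call kept without any single library. Lrrc8b, a subunit of volume-regulated anion channels, rose from 80.4 ± 8.07 to 109 ± 17.0 CPM (0.44 ± 0.11, edgeR adjusted p = 0.0473), a call that held when germ-free 3 was left out and ended without any other library and by limma voom. Nfat5, the transcription factor of the tonicity response, was at 320 and 315 CPM (edgeR adjusted p = 0.935), and it too was named for its place in the pathway.

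Of 29 genes that use glutamine and arginine, 2 were called higher and 1 lower (median -0.08), by edgeR, DESeq2 and limma voom alike. At an unadjusted p under 0.05 edgeR found 9 of the 29. Gpt2, a mitochondrial alanine aminotransferase, was at 43.7, 45.9, 38.2 and 38.7 CPM in the SPF libraries and at 27.7, 22.2, 26.8 and 23.8 CPM in the germ-free libraries. It fell by 0.73 ± 0.12 on the log2 scale (edgeR adjusted p = 0.00528), a call kept without any single library. Glul, the glutamine synthetase gene, rose from 325 ± 86.8 to 597 ± 83.0 CPM (0.88 ± 0.20, edgeR adjusted p = 0.0418) with no overlap. Sat1, a polyamine acetyltransferase gene, rose from 154 ± 21.8 to 232 ± 45.6 CPM (0.59 ± 0.14, edgeR adjusted p = 0.0420). Leaving out SPF 1 or SPF 5 left the Glul call in place, and leaving out SPF 4 or germ-free 1 left that of Sat1, while each ended without any other library. Of 10 genes for partners of SLC7 chains and regulators of transporter stability, 0 passed with edgeR, DESeq2 and limma voom alike, with 2, 2 and 1 at an unadjusted p under 0.05. The smallest p was that of Cd44, at 972 ± 48.0 and 829 ± 65.2 CPM. With the fibroblast covariate edgeR called 0 of the 10 different genes called in these lists, where it called 112 genes in all. The log2 fold changes in that fit were -0.45 for Shmt2, -0.73 for Gpt2, -0.54 for Sgk1 and 0.59 for Lrrc8b. Without the covariate they were -0.45, -0.73, -0.51 and 0.44. The edgeR adjusted p of these genes in the covariate fit lay between 0.0572 and 0.104, and that of Slc43a3 was 0.0911. Other called genes had smaller fold changes with the covariate. For Castor1, Phgdh and Ddit4 they were -0.53, -0.42 and 0.34, against -0.56, -0.44 and 0.51 without it. For Glul and Sat1 they were 0.73 and 0.40, against 0.88 and 0.59. In the covariate fit the edgeR adjusted p of these last genes lay between 0.193 and 0.365.

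**Figure D5:**
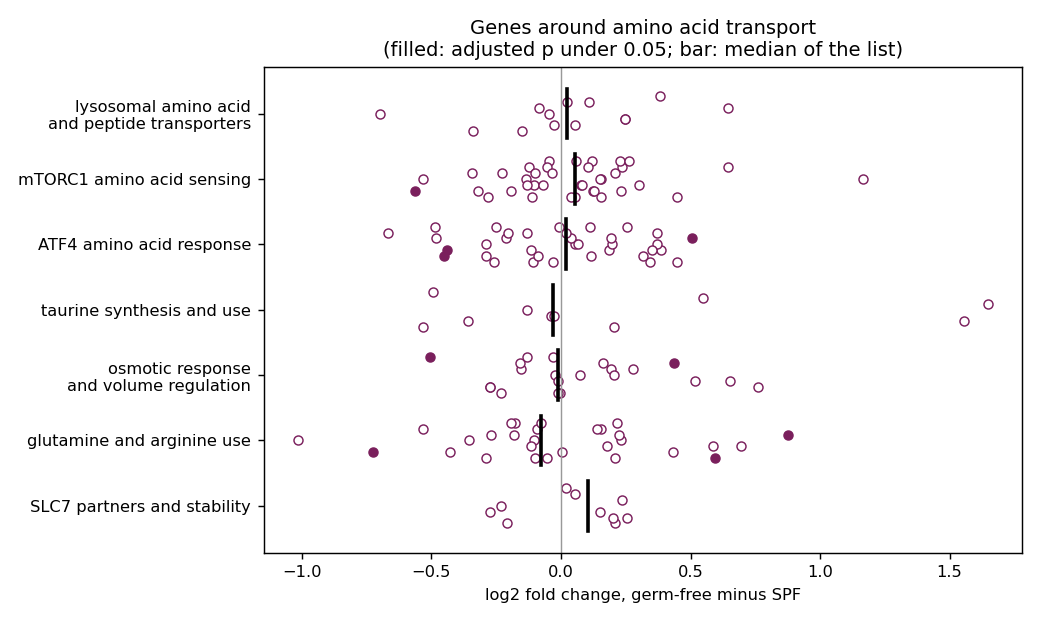
Log2 fold change of germ-free over SPF (horizontal axis) for each tested gene of 7 lists around amino acid transport; filled points had an edgeR adjusted p under 0.05 and the black bar is the median of the list. List medians lie between -0.08 and 0.10, and filled points stand on both sides of 0.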

How the data were processed

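The deposited table held raw gene counts for 8 libraries, per the file headers. The submitters' processing notes name DESeq2 1.22.2, HTSeq 0.6.0, TopHat2 2.1.1, cutadapt 1.18 and bcl2fastq 2.18.0.12 and the build GRCm38, without their roles. Whether counting used the strand is not given in these sources. The authors also deposited normalized signals (counts divided by 1 size factor per library), log2 fold changes of SPF over germ-free, a Wald score and p-values with adjusted p-values.

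Here the counts were filtered with filterByExpr (minimum count 10, minimum total 15), which left 15098 genes, scaled by TMM and tested with edgeR's quasi-likelihood F test (robust, group as the only term, prior count 0.125). Adjusted p-values are Benjamini-Hochberg over all of these genes, and directions are germ-free minus SPF. A call is an adjusted p under 0.05. The SE was taken from the F statistic and confidence intervals from the degrees of freedom of the fit. Intervals and floors cover counting error or the spread between these libraries only. Exon lengths came from GENCODE M21, whose start and end matched 99.0% of the table's identifiers. The members and lists were chosen with earlier results of these data known. Genes named from a list were its called genes, at most the 4 with the smallest p, or the 1 with the smallest p where 0 were called. The procedure was tested on simulated counts. The fits were repeated with other scalings, tests, filters, a replicate block, a fibroblast covariate and each library left out. Fits ran in DESeq2 1.42.0, limma 3.58.1 and edgeR 4.0.16 under R 4.3.3, and permutation tests in scipy 1.17.1. Of the genes closest in profile to Slc6a6, 1 is not reported here.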

Additional observations from a re-analysis of the deposited data

Results flagged for a closer look

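The Slc6a6 level in germ-free 2, 1513 CPM, stood far from the other 3 germ-free libraries, which lay between 1319 and 1344 CPM. Its gap to the nearest of them was 0.870 of the range of the group, where 0.83 is the 95% critical value for 4 samples. This was the single such case among 18 groups examined, and chance flags about 1 in 20 groups. SPF libraries lay at or below 709 CPM, and the log2 fold change was 1.02 without germ-free 2 against 1.07 with it.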

How the results depend on the processing

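The log2 fold change of Slc6a6 lay between 0.96 and 1.11 under all alternatives. The other members called numbered 1 (Slc38a2) by DESeq2, limma voom and the block on source name numbers, and 0 otherwise. Over all genes edgeR called 631 (279 higher, 352 lower); DESeq2 called 1257 (598 and 659), limma voom 1023 (455 and 568) and the fibroblast covariate fit 112 (65 and 47). Calls numbered 284 to 688 with 1 library left out (128 to 286 higher, 152 to 402 lower). The genes called in the lists beside the members numbered 10, against 18 by DESeq2, 0 with the covariate and 4 to 10 with 1 library left out; the cause was not tested. Without 1 library the log2 fold change ran from -0.014 to 0.12 for Slc1a4, from -0.079 to 0.026 for Slc1a5 (0.016 by limma voom) and from -0.0044 to 0.26 for Slc38a9, and the pair difference Slc1a5 minus Slc1a4 from -0.19 to 0.040. With 3 against 4 libraries the exact test cannot go below 0.0571.

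The labels give 2 numberings. The deviations of same-numbered libraries from their group means had correlations of 0.192, -0.0821 and -0.0749 by title. By source name the correlations were 0.192, 0.168, 0.110 and 0.0735. So few correlations cannot decide whether either numbering reflects a pairing of the libraries. The replicate block by title gave 315 calls (156 higher, 159 lower) on 6 libraries, against 350 (148 and 202) without a block, a comparison added after seeing the data, with 9 and 5 list genes. The block by source name gave 886 calls (440 higher, 446 lower) and 16 list genes. Not every library correlated best with its own number.

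Slc38a1, with 71 counts in all, limits what can be said of SNAT1. Without a filter its adjusted p was 0.424.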
